A study of Homo sapiens with 96 samples.

Results

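All-trans retinoic acid (ATRA) was added to an LSD1 inhibitor in MOLM13 cells, and the genes that differed between cells given both compounds and cells given the inhibitor alone are described here. MOLM13 is a human acute myeloid leukaemia line with monocytic features that carries a KMT2A fusion and an activating FLT3 mutation. The 552A group received 1 µM GSK2879552, an inhibitor of lysine-specific demethylase 1 (LSD1, gene KDM1A), and the Combo group received 1 µM GSK2879552 with 100 nM ATRA. Both groups therefore carried the inhibitor, and ATRA was the difference between them. Each group was sampled at day 2 and at day 4 with 2 replicates, so 4 Combo libraries were set against 4 552A libraries, 8 of the 96 in the series. The labels do not spell out 552A, which was taken to mean GSK2879552 since its digits end that name. For reference, 4 DMSO libraries (0.1% vehicle) and 4 libraries of 100 nM ATRA alone from the same line were used, and 8 libraries each of MV411 and THP1, other leukaemia lines with KMT2A fusions. All results rest on a single line, and the labels did not state that replicates were separate cultures, so the p-values reflect library-to-library spread alone, and that spread may be technical.

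ATRA is the ligand of the retinoic acid receptors (RARs), which sit on DNA as heterodimers with retinoid X receptors. Their preferred sites are direct repeats of a 6-base unit, and a 5-base spacer (a DR5) is the classical arrangement. In myeloid leukaemia, ligand-bound RARs are known for turning on genes of differentiation, and LSD1 is known as a repressor that removes methyl groups from histone H3 lysine 4 at genes bound by GFI1 and GFI1B.

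The promoters of the genes called higher are shown where they hold a DR5, because this repeat is the textbook target of the added ligand. Windows of 300 bases around annotated starts (250 before, 50 after) were taken from RefSeq (GRCh38.p14) and searched on both strands for 2 such units in tandem with 5 bases between them. A unit was AGGTCA or AGTTCA, and also GGGTCA as well as GGTTCA. The repeat was found for 29 of 27305 genes in the RefSeq promoter table (0.106%), for 11 of the 10580 tested genes that the table holds, for 3 of the 769 called higher in Combo than in 552A (0.39%) and for 0 of the 552 called lower. Those 3 were CYP26A1, RARB and BATF2, and the other 8 of the 11 tested genes were not called. Spacers of 2 bases (DR2) and 1 base (DR1) were searched in the same way. A DR2 was found for 0.0513% of all genes in the table, 5 of the 10580 tested (0.0473%), 1 of the 769 called higher (0.13%) and 1 of the 552 called lower (0.181%). A DR1 was found for 0.161% of all genes, 24 of those tested (0.227%), 2 of those called higher (0.26%) and 1 of those called lower (0.181%). The 120 bases before the start follow, in the direction of the gene, with the repeat in capitals.
CYP26A1 (chr10:93073773-93073892, plus strand): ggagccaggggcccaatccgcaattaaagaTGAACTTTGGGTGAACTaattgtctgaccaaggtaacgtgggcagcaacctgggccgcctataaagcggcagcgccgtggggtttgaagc
RARB (chr3:25428143-25428262, plus strand): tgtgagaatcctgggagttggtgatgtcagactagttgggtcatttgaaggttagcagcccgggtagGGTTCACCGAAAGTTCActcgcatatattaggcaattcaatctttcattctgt
BATF2 (chr11:64990278-64990397, minus strand): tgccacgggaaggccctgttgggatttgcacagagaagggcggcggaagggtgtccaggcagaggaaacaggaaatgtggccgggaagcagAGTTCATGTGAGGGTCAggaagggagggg
The repeat lay at bases -90 to -74 from the start in CYP26A1, on the strand opposite to the gene, at -53 to -37 in RARB and at -29 to -13 in BATF2. These matches describe the sequence only, and binding was not measured.

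The deposited table gave read counts per gene, and the 8 libraries held 14.31 to 26.29 M counts. Levels are given as counts scaled to library size (CPM) and differences as Combo minus 552A on the log2 scale with the standard error (SE). The myeloid markers CD33 (147 to 186 CPM over the 8 libraries), PTPRC (178 to 300 CPM) and LYZ (1030 to 2100 CPM) were present, while CD68 stood at only 0.644 to 1.28 CPM, and HBB had 0 counts. Most of CD68 overlaps another annotated transcript, AC016876.2, on the same strand. How the counting treated their shared reads was not given, so the low value may not reflect low expression. The library 552A day 4 replicate 1 stood apart by a trend of its counts with gene GC content (slope -0.48 log2 per 10% GC, against -0.25 to 0.2 in the other 7). Mitochondrially encoded genes took 1.22 to 1.69% of the counts in 552A and 0.821 to 1.26% in Combo. In that list 12 of 13 members were called lower in Combo (median -0.93), and 7 without Combo day 4 replicate 1. For ATRA against DMSO 1 member was called higher and 0 lower. There the share of counts was 2.82% in ATRA day 2 replicate 1, which stood apart. It was 1.28 to 1.3% in the other ATRA libraries and 0.919 to 1.17% in DMSO. The part of these genes in the other results was not tested.

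ATRA added to GSK2879552 changed 2147 genes, with retinoid-response, antigen-presentation, guanylate-binding protein and chemokine-receptor genes among the rises and granule and progenitor genes among the falls. Of 18266 genes tested over both days, 1196 were called higher in Combo (6.55%) and 951 lower (5.21%), together 11.8%. These shares are the background for the list counts over both days given below. A call required an adjusted p under 0.05 of edgeR's quasi-likelihood test. Without 552A day 4 replicate 1 the counts were 1094 and 976, and they fell to 740 and 472 without Combo day 4 replicate 1 and to 743 and 488 without Combo day 4 replicate 2. The change was at least 2-fold for 752 of the rises and 631 of the falls, and at least 16-fold for 99 and 29. Protein-coding genes made up 991 of the rises and 683 of the falls. At day 2 alone 450 genes were called (2.46%), 319 higher (1.75%) and 131 lower (0.717%), and at day 4 alone 1242 were called (6.8%), 684 higher (3.74%) and 558 lower (3.05%).

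**Figure D1:**
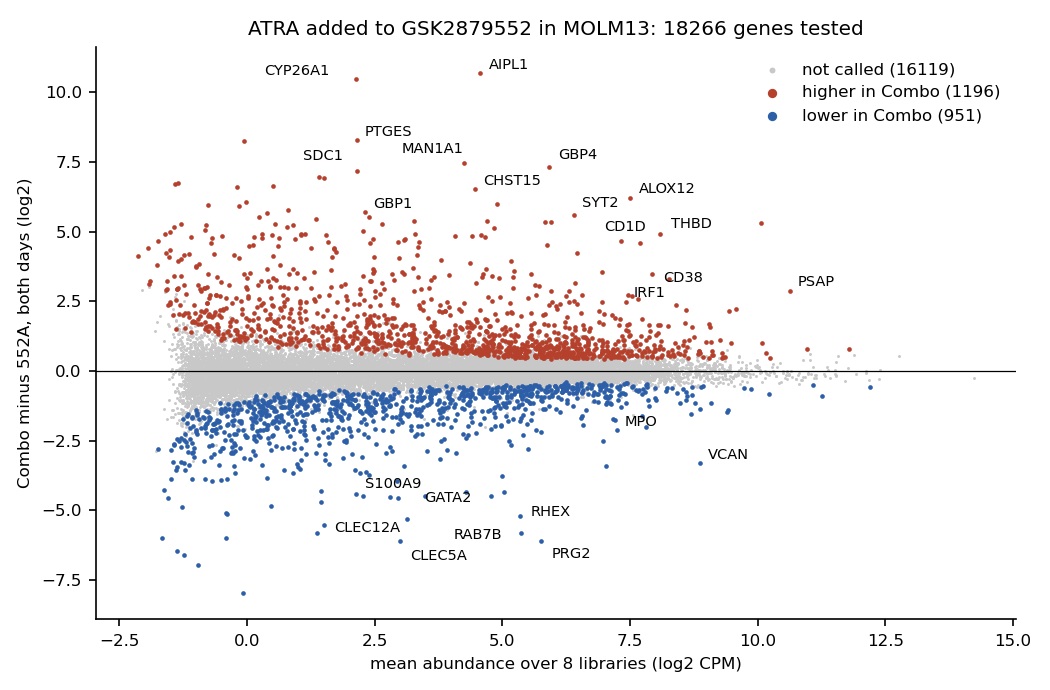
Difference between Combo and 552A over both days (y axis, log2) against mean abundance over the 8 libraries (x axis, log2 CPM), one point per gene, with called genes in red (1196 higher) and blue (951 lower). AIPL1 and CYP26A1 lie above 10 on the log2 scale, and PRG2, CLEC5A, RAB7B and CLEC12A lie below -5.

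Some genes that handle or bind retinoic acid were changed. Of 10 tested members of the retinoid metabolism and binding list 2 rose (CYP26A1 and DHRS3) and 1 fell (RDH10). The median of that list was -0.05, against -0.01 over all genes tested. CYP26A1, the cytochrome that hydroxylates and clears retinoic acid, had 0 counts in all 4 552A libraries and 1.92, 3.02, 18.0 and 11.9 CPM in the Combo libraries (day 2 first). With 3 counts over the 552A group as the limit, it was at least 244-fold higher in Combo, counting error only (adjusted p = 5.5e-05). RARB, a receptor gene and itself a target of its own product, stood at 8.97, 9.09, 13 and 9.66 CPM in 552A and at 23.2, 29.2, 31.0 and 37.1 CPM in Combo, without overlap (1.57, SE 0.17, adjusted p = 2.3e-04). RARA and RARG, the other receptors, were not called (0.18 ± 0.38 and -0.07 ± 0.29, log2 ± SE). DHRS3, which reduces retinaldehyde and so limits the making of retinoic acid, was at 10.8 to 25.4 CPM in 552A and 362 to 427 CPM in Combo (4.59, SE 0.27, adjusted p = 5.3e-06). RDH10, which works in the opposite sense by oxidising retinol, was lower in Combo (-0.71, SE 0.17, adjusted p = 0.025), and this call was lost without 1 of 4 single libraries (552A day 2 replicate 1, Combo day 2 replicate 1 and either Combo library of day 4).

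In the list of retinoic acid targets 17 of 23 tested members were called higher and 3 lower, with a median of 2.35 against -0.01 over all genes tested. The largest included HIC1, a transcriptional repressor (1.16 to 5.66 CPM in 552A, 64.3 to 174 CPM in Combo, 5.33), and RARRES3, a phospholipase gene named for its retinoid response (0.946 to 2.33 CPM and 43.7 to 66.3 CPM, 5.14). CD38, an ectoenzyme that consumes NAD and a surface marker of retinoid-treated leukaemia cells, had 42.1, 47.6, 40.4 and 28.7 CPM in 552A and 376, 489, 456 and 449 CPM in Combo (3.49, SE 0.18, adjusted p = 1.6e-06). THBD, the thrombin receptor thrombomodulin, went from 11.3 to 22.8 CPM in 552A to 399 to 675 CPM in Combo (4.90, SE 0.28). The 3 members that fell were CEBPE, a granulocytic transcription factor (-2.98), TSHZ3 (-3.55) and BTG1 (-0.61), whose call was lost in 7 of 15 settings, 6 of them single libraries left out, which made the falls 2. Of 16 tested retinoic acid receptor and cofactor genes 3 were called higher and 1 lower, with a median of 0.08. Without single libraries the rises stayed at 3 and the falls were 0 to 2. Besides RARB the rises were NRIP1, a corepressor that binds ligand-bound nuclear receptors (5.36, SE 0.33), and the coactivator NCOA3 (1.21, SE 0.12). RARB, HIC1, IRF1, ALOX12, VCAN and GATA2 are among the genes that overlap another annotated gene on the opposite strand. Reads in the stretch that such a pair shares cannot be told apart without the strand setting of the counting. That setting is not given in the sources used here. The overlaps are of whole gene spans, introns included, and differ in extent. RARB and its neighbour TOP2B share only bases 25597905 to 25597932 of chromosome 3, whereas ALOX12 lies wholly within the span of ALOX12-AS1.

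The other leading rises were not on the retinoid lists. AIPL1, a chaperone gene known from photoreceptors, had 2 counts over the 4 552A libraries and 3387 over the 4 Combo libraries, a ratio of 2035 (95% counting interval 563 to 16810). PTGES, which makes prostaglandin E2, had 2 and 683 counts (ratio 410.3, interval 113 to 3395), and GRIN2A, a glutamate receptor subunit, had 3 and 372 (ratio 149.0, interval 50.6 to 726). GRIN2A was almost all at day 4, at 8.88 and 12.9 CPM in Combo against 0.586 and 0.282 CPM at day 2. ALOX12, the 12-lipoxygenase, stood at 2.71 to 6.87 CPM in 552A and 327 to 397 CPM in Combo (6.22, SE 0.26, adjusted p = 9.5e-07). MAN1A1, a Golgi mannosidase (7.46), SDC1, the proteoglycan syndecan-1 (7.18), CHST15, a sulfotransferase (6.53), TLE6, a member of the Groucho corepressor family (6.00), and SYT2, a synaptotagmin (5.59), completed the largest rises with the guanylate-binding protein genes below. In all 12 of these genes the Combo libraries lay above the 552A libraries at each day, a pattern required for naming them and met by 12.1% of all genes tested.

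**Figure D2:**
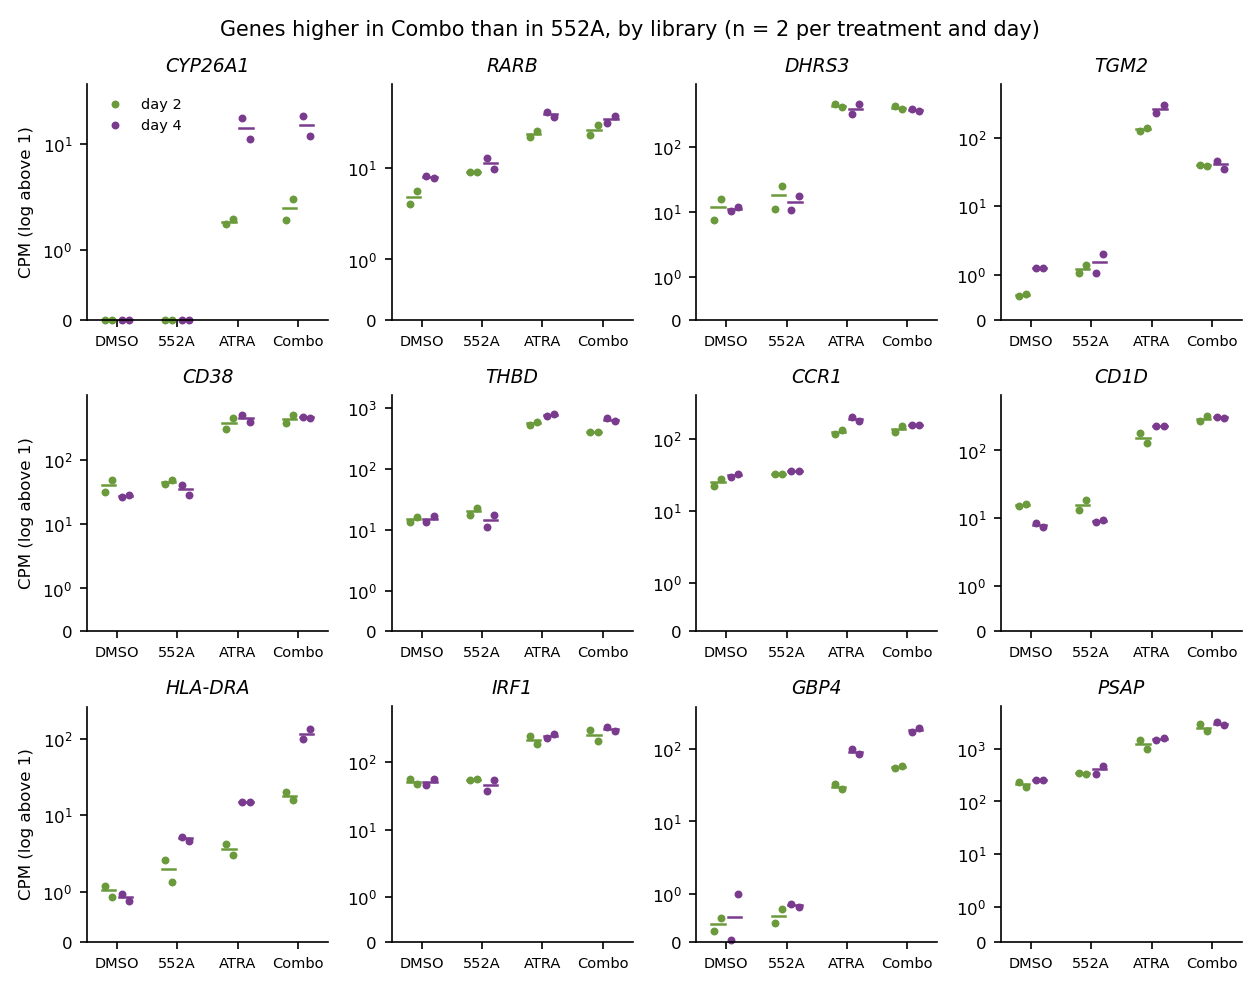
Level in CPM of 12 genes that rose (y axis, linear below 1 and logarithmic above) in DMSO, 552A, ATRA and Combo, with 2 libraries per treatment and day as points and their mean as a bar. CYP26A1 is at 0 in all DMSO and 552A libraries, and TGM2 is lower in Combo (35.0 to 46.4 CPM) than in ATRA alone (127 to 299 CPM).

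Genes for antigen presentation were higher in Combo. HLA class II molecules show peptides to T helper cells, and their transcription depends on the coactivator CIITA. Of 17 tested members of the class II list 13 were called higher and 0 lower, with a median of 1.97. HLA-DRA, the alpha chain of HLA-DR, had 2.62, 1.35, 5.25 and 4.65 CPM in 552A and 20.4, 15.8, 100.4 and 132 CPM in Combo (3.94, SE 0.33, adjusted p = 4.3e-05). The Combo libraries were above all 552A libraries, and day 4 was above day 2. CIITA stood at 12.3, 16.4, 10.1 and 18.6 CPM in 552A and at 38.0, 21.5, 104.9 and 102.7 CPM in Combo (1.97, SE 0.39, adjusted p = 0.0080). HLA-DPA1 (5.17) and HLA-DQA1 (4.72) were near absent in 552A, at no more than 0.233 CPM, and reached 5.37 to 7.47 CPM in Combo at day 4. At day 2 alone 3 members were called and at day 4 alone 12. The count at day 2 was 1 without 552A day 2 replicate 2, 2 without replicate 1 of either treatment at day 2, and 5 without 552A day 4 replicate 1. In the class I list 7 of 21 rose and 0 fell (median 0.54), among them PSMB9, a subunit of the immunoproteasome (1.59, SE 0.22), and PSME2, a proteasome activator (1.25, SE 0.15). HLA genes are related in sequence to differing degrees, and how the counting treated any reads shared between them was not given.

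Interferon-response genes were higher as well, led by the guanylate-binding proteins, GTPases that act against intracellular microbes. In that list 17 of 40 members rose and 0 fell (median 0.76). GBP4 was at 0.403 to 0.796 CPM in 552A and at 54.9, 57.9, 169.6 and 192 CPM in Combo (7.32, SE 0.28, adjusted p = 9.2e-07). GBP1 was at 0.0727 to 0.310 CPM in 552A and at 4.37, 4.03, 12.9 and 17.2 CPM in Combo (5.71, SE 0.27), while its highest value in ATRA alone was 0.0492 CPM. The test of that difference between the 2 ATRA comparisons did not call GBP1. Its estimate was 4.34 with an SE of 116, so it could not decide the question. GBP3 rose by 1.86 and GBP5 by 3.55. Of 21 interferon regulatory factor (IRF) and STAT genes 8 rose and 0 fell. IRF1, an activator of class II, proteasome and GBP genes, went from 37.7 to 55.9 CPM in 552A to 209.6 to 334 CPM in Combo (2.49, SE 0.19, adjusted p = 2.9e-05). BATF2, a basic leucine zipper factor whose promoter is shown above, had 4 counts in 552A and stood at 1.87, 2.13, 2.26 and 3.54 CPM in Combo (5.65, SE 0.53). Without single libraries the class II count ranged from 12 to 14 and the interferon count from 15 to 18. The IRF and STAT count was 5 or fewer without 552A day 4 replicate 1 or 2, Combo day 2 replicate 2 or Combo day 4 replicate 1 or 2, with 3 as its lowest.

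Receptors on the cell surface changed in both directions. Chemokine receptors steer leukocyte migration, and 5 of 9 rose and 2 fell (median 1.74). CCR1, a receptor for inflammatory chemokines, had 33.3, 32.9, 36.4 and 36.8 CPM in 552A and 125.5, 154.7, 157.6 and 156.2 CPM in Combo (2.10, SE 0.12, adjusted p = 3.6e-06), without overlap. CCR2 (1.74), CCR3 (3.66, SE 0.25) and CX3CR1 (2.86) also rose, though CCR1 and CCR3 overlap on opposite strands. CXCR4, which holds cells in the marrow, fell from 157 to 176 CPM to 79.2 to 102 CPM (-0.92), and CCR7, the receptor for homing to lymph nodes, fell by 2.49. CCL2, a ligand of CCR2, rose from 1.71 to 9.62 CPM to 60.1 to 138 CPM (4.52, SE 0.31).

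Differentiation markers did not move as a block. ITGAM, which encodes CD11b, was at 138, 192, 100.2 and 173 CPM in 552A and at 261, 263, 259 and 221 CPM in Combo (0.75, SE 0.18, adjusted p = 0.021), and this call was lost when any 1 of the 4 libraries named for RDH10 was left out. CD86, a costimulatory ligand known as a marker of LSD1 inhibition in myeloid leukaemia, stood at 69.5 to 104.5 CPM in 552A and at 65.4 to 88.6 CPM in Combo and was not called (-0.11, SE 0.13, adjusted p = 0.68). Among 16 dendritic cell and CD1 genes 9 rose and 4 fell. CD1 molecules present lipids to T cells, and CD1D went from 8.86 to 18.4 CPM to 268 to 323 CPM (4.65, SE 0.21, adjusted p = 1.0e-06). CD1A (2.92), CD1C (4.80) and the lectin CLEC10A (4.93, SE 0.24) also rose. In the monocyte and macrophage list 6 of 27 rose and 10 fell. MERTK, a receptor for the uptake of dying cells (3.47, SE 0.39), and the protease CTSL (1.42, SE 0.16) were among the rises, whereas FCN1 (-3.95), S100A8 (-3.35), S100A9 (-4.43), CD14 (-2.29) and VCAN (-3.32) were among the falls. The call for CD14, a low-count gene (0.743 to 3.68 CPM in 552A), was lost in 7 of 15 settings.

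Lysosome and lipid-mediator genes were among the rises. In the lysosomal list 13 of 38 members rose and 0 fell (median 0.49). PSAP, the precursor of the saposins that activate sphingolipid hydrolases, had 351, 330, 336 and 477 CPM in 552A and 2872, 2149, 3135 and 2747 CPM in Combo (2.88, SE 0.18, adjusted p = 6.7e-06). NPC2, a carrier of cholesterol out of lysosomes, rose by 1.55 (SE 0.14). The lysosomal count was 8 without Combo day 2 replicate 1 or either Combo library of day 4. Of 15 leukotriene and prostaglandin genes 5 rose and 0 fell, among them ALOX12, PTGES and the leukotriene-processing dipeptidase DPEP2 (1.64, SE 0.21). In the Toll-like receptor and inflammasome list 8 of 24 rose and 3 fell, including TLR5, the flagellin receptor (3.22, SE 0.23), and the inflammasome sensors NLRP1 (2.12, SE 0.26) and AIM2 (1.45, SE 0.23). Without either Combo library of day 4 that count of rises was 5. The falls were 0 without Combo day 4 replicate 1, 2 without 552A day 2 replicate 1, and 1 without 552A day 2 replicate 2, 552A day 4 replicate 2, either Combo library of day 2 or Combo day 4 replicate 2.

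The falls included transcription factors of progenitors and granule proteins. GATA2, a factor of stem cells, mast cells and megakaryocytes, was at 30.1, 45.8, 34.0 and 96.3 CPM in 552A and at 3.68, 2.58, 1.92 and 0.852 CPM in Combo (-4.48, SE 0.51, adjusted p = 3.2e-04). BCL11A (-2.13, SE 0.20) and ZBTB16 (-3.53, SE 0.59), a partner of RARA in a rare leukaemia fusion, also fell. Of the 17 progenitor factors tested 5 fell and 0 rose. NFE2, a megakaryocyte and erythroid factor, fell by 2.96 (SE 0.39). Azurophil granule proteins are stored early in neutrophil and monocyte maturation, and 5 of 14 fell and 2 rose, with 1 rise without Combo day 2 replicate 2 or either Combo library of day 4. MPO stood at 259, 410, 85.5 and 193 CPM in 552A and at 106, 85.8, 29.4 and 20.2 CPM in Combo (-2.13, SE 0.29, adjusted p = 9.8e-04). CTSG, cathepsin G, went from 183 to 255 CPM to 56.2 and 66.0 CPM at day 2 and 6.09 and 6.90 CPM at day 4 (-3.40). BPI, a bactericidal protein of the same granules, rose from 17.9 to 26.5 CPM to 87.9 to 164 CPM (2.46, SE 0.18).

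PRG2, the eosinophil major basic protein, gave the largest fall among the named genes, from 165, 96.3, 75.7 and 80.9 CPM in 552A to 3.52, 4.07, 0.170 and 0.197 CPM in Combo (-6.11, SE 0.55, adjusted p = 8.0e-05). TPSB2, a mast cell tryptase with near-identical copies, fell by 5.80 (SE 0.89). The list of mast cell, basophil and eosinophil genes summed to 110 to 201 CPM in 552A and 29.5 to 60.3 CPM in Combo. It summed to 66.8 to 149 CPM in DMSO and 19.8 to 33.1 CPM in ATRA alone. PRG2 is a member and made up 165 of 200.6, 96.3 of 129.6, 75.7 of 110 and 80.9 of 141.7 CPM in 552A. With PRG2 at no more than 4.07 CPM in Combo, the lower sum there largely repeats its fall. Of the 20 members of the list 19 had counts and TPSG1 was at 0. Of the 6 tested 3 fell and CCR3 rose. In such bulk samples fewer cells of a type and less RNA per cell cannot be told apart. The summed levels of the other lists of foreign cell types were 18.4 to 29.1 CPM in 552A and 15.4 to 24.0 CPM in Combo for megakaryocyte and erythroid genes, 106 to 160 CPM and 92.4 to 103 CPM for lymphoid genes, and 162 to 240 CPM and 93.2 to 166 CPM for stromal, endothelial and epithelial genes. The counts of 0 in these 3 lists included HBB, PF4, CD2, DNTT, COL3A1 and CDH5. Not every marker chosen for other cells was absent. PECAM1 stood at 80.2 to 233 CPM over the 8 libraries (median 154), and whether it came from the leukaemia cells themselves was not tested.

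Several falling genes were at their highest in 552A among the 4 treatments. VCAN, the matrix proteoglycan versican, was at 9.97 to 20.4 CPM in DMSO, 559, 570, 1017 and 1181 CPM in 552A, 0.410 to 0.873 CPM in ATRA alone and 47.5, 64.6, 99.8 and 121 CPM in Combo (-3.32, SE 0.15, adjusted p = 9.6e-07). Its Combo level was therefore below 552A and above DMSO, without overlap. CLEC5A, a lectin receptor of monocytes, stood at 9.87 to 17.8 CPM in 552A and at 0.0655 to 0.283 CPM in Combo (-6.10, SE 0.35, adjusted p = 4.3e-06), and DMSO was at 0.197 to 1.58 CPM. CLEC12A, a lectin receptor of myeloid progenitors, went from 3.35 to 6.30 CPM in 552A to 0.0565 to 0.213 CPM in Combo (-5.54, SE 0.42). S100A9, a subunit of calprotectin, was at 3.18 to 14.2 CPM and 0.0565 to 0.966 CPM (-4.43, SE 0.56). Comparisons of 552A with DMSO share the 552A libraries with these differences, so only the levels are given. RAB7B, a GTPase of late endosomes, fell by 5.80 (SE 0.32) from 61.7 to 110.3 CPM, but was high in DMSO as well (32.9 to 51.1 CPM).

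**Figure D3:**
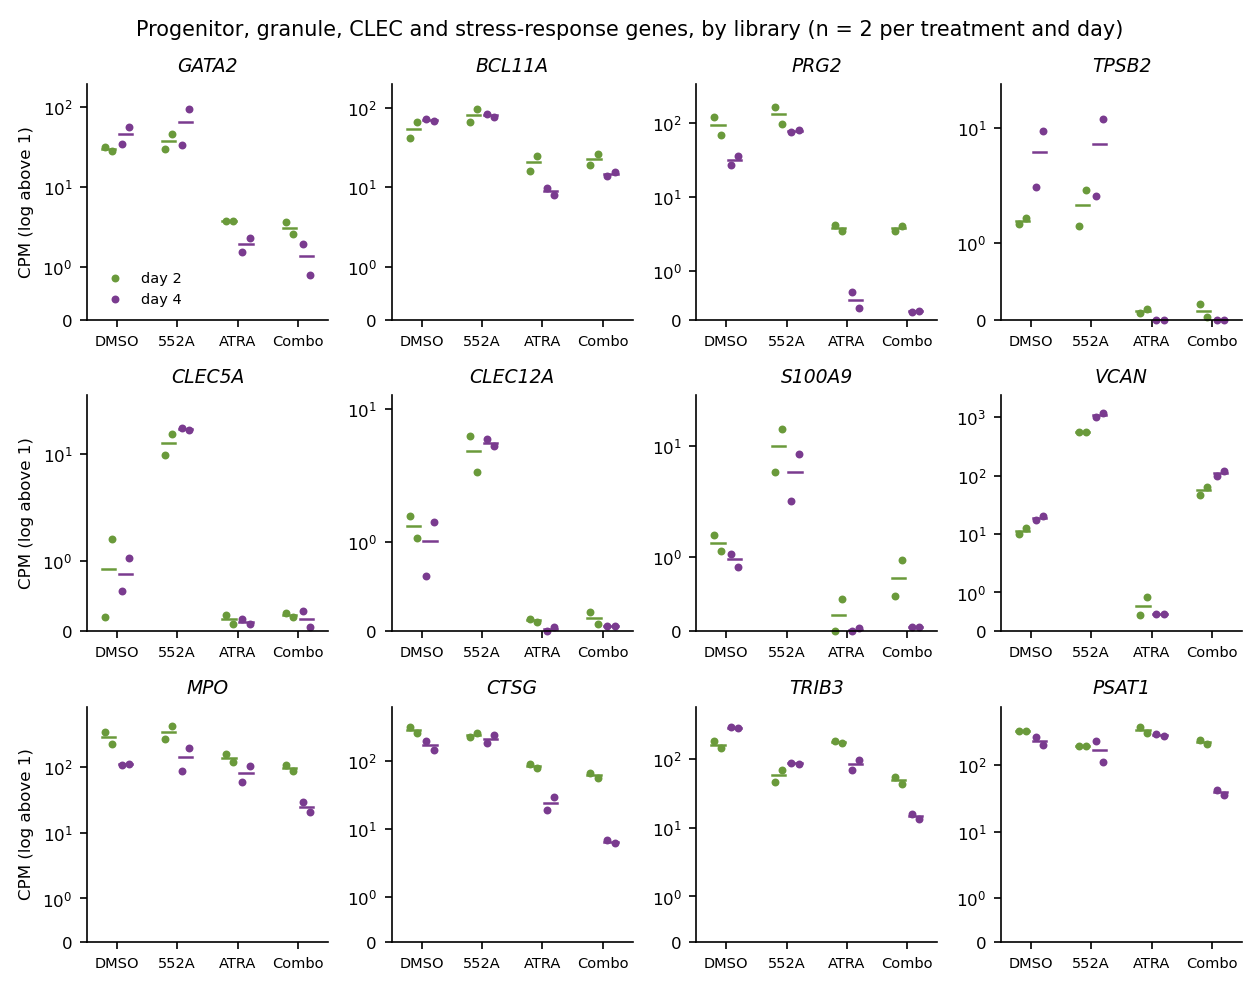
Level in CPM of 12 genes of the progenitor, granule and stress-response groups with the receptors CLEC5A and CLEC12A (y axis, linear below 1 and logarithmic above) in DMSO, 552A, ATRA and Combo, with 2 libraries per treatment and day as points and their mean as a bar. VCAN, CLEC5A, CLEC12A and S100A9 are highest in 552A, and TRIB3 and PSAT1 are lowest in the 2 Combo libraries of day 4.

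Some metabolic genes fell. Of 32 cholesterol and fatty acid synthesis genes 6 fell and 0 rose (median -0.48). That count was 13 without 552A day 4 replicate 1 and 2 without either Combo library of day 4. FADS1, a fatty acid desaturase, went from 52.8 to 98.2 CPM to 4.39 to 24.9 CPM (-2.80, SE 0.38, adjusted p = 9.5e-04), and SCD, another desaturase, from 418 to 706 CPM to 99.97 to 408 CPM (-1.54, SE 0.30). The integrated stress response and serine synthesis list, genes driven by ATF4 when amino acids run short, had 1 of 21 members called in each direction over both days. The number called lower over both days was 6 without 552A day 2 replicate 1, 4 without Combo day 2 replicate 1 and 0 without either Combo library of day 4. At day 4 alone 11 were called lower and 1 higher (median -1.32), and at day 2 alone 0 lower and 1 higher (median 0.21). TRIB3, a pseudokinase, had 87.2 and 83.3 CPM in 552A and 15.8 and 13.2 CPM in Combo at day 4 (-2.57), and 45.4 and 69.1 CPM against 53.4 and 43.7 CPM at day 2. PHGDH and PSAT1, enzymes of serine synthesis, differed by -2.17 and -2.15 at day 4. No gene of this list was called for a difference between the days. The number called lower at day 4 was 6 without 552A day 4 replicate 1, and 5 and 4 without Combo replicates 1 and 2 of that day.

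Other lists had few members called or none. Of 40 S phase genes 1 rose (RFC2, 0.87, SE 0.13), and of 36 mitosis genes and 31 ribosome biogenesis genes 0 were called. KDM1A itself stood at 157 to 205.3 CPM in 552A and at 128 to 187 CPM in Combo (-0.20, SE 0.13, adjusted p = 0.38), and 0 of 16 members of the LSD1 complex and its GFI1 partners were called. LSD1 inhibition by the compound acts on the enzyme, so the KDM1A level is no check of the labels. MYC was at 439, 588, 332 and 673 CPM in 552A and at 389.5, 247, 197 and 178 CPM in Combo (-1.04, SE 0.26, adjusted p = 0.029), and the call was lost in 5 of 15 settings. HOXA9 and MEIS1, which sustain leukaemia with KMT2A fusions, were not called (-0.09 ± 0.16 and 0.16 ± 0.14). Of 16 BCL2 family genes 3 rose and 1 fell, with 2 rises without 552A day 2 replicate 2 or any 1 of the 4 libraries of day 4. Over all genes tested 6.55% rose and 5.21% fell, so 1 fall of 16 is near the share of all genes. The fall was BCL2, which restrains cell death, from 416 to 541 CPM to 163 to 324 CPM (-1.15, SE 0.19, adjusted p = 0.0034), and BMF, which promotes it, rose by 1.24 (SE 0.21). BCL2A1, which like BCL2 restrains cell death, rose as well (1.09). KIT, the stem cell factor receptor, rose from 0.109 to 0.796 CPM to 1.65 to 11.6 CPM (4.28, SE 0.39), and FLT3 was not called (0.35, SE 0.17).

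**Figure D4:**
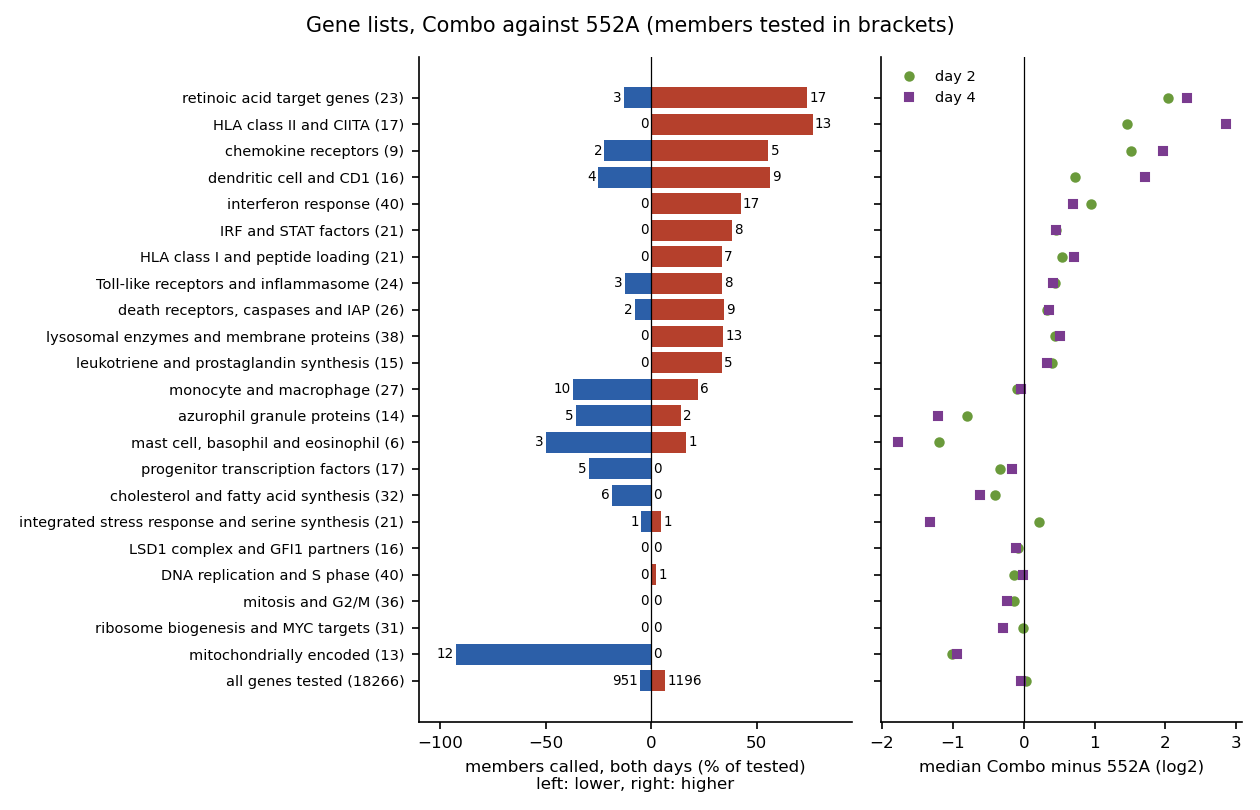
Left, share of the tested members of each list called lower (blue) or higher (red) over both days, in percent, with the number of genes at each bar. Right, median difference of Combo minus 552A at day 2 (circles) and day 4 (squares), in log2, where HLA class II moves from 1.45 to 2.85 and the stress response list from 0.21 to -1.32.

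The differences were compared between the days. All 1196 rises and all 951 falls had the same sign at both days, and the difference was larger at day 4 for 886 of the rises (74.1%) and 770 of the falls (81%). The both-day test on the same 8 libraries chose these genes, and it favours genes that agree between days. The shared sign is therefore no separate finding. The median rise among called genes was 1.09 at day 2 and 1.37 at day 4, and the median fall was -1.06 and -1.46, values chosen by the calls themselves. The test of day 4 against day 2 called 0 of 18266 genes (0%) with edgeR, with 635 at an unadjusted p under 0.05, and 35 with DESeq2. CEACAM1, an adhesion receptor, was not called there either, at 1.49 and 1.29 CPM in Combo at day 2 and 19.8 and 18.9 CPM at day 4 against at most 0.546 CPM in 552A.

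ATRA alone, compared with DMSO in separate libraries, asked whether the inhibitor altered the ATRA response. That comparison called 1294 of 18208 genes (7.11%), 681 higher (3.74%) and 613 lower (3.37%). Of the genes higher in Combo than in 552A, 553 were also higher with ATRA alone, 46.2% of the former and 81.2% of the latter, and 3 were called in opposite directions. For the lower genes the overlap was 397, or 41.7% and 64.8%, with 1 opposite. Of the 1196 rises 1098 passed the filter for ATRA alone, and 1077 of these had the same sign there, called or not. Of the 951 falls 888 passed it, and 864 had the same sign. The 2 comparisons share no library. A test of the difference between them called 16 of 19131 genes (0.0836%), 6 with a more positive ATRA difference in the presence of the inhibitor (0.0314%) and 10 with a more negative one (0.0523%), and 928 at an unadjusted p under 0.05. DESeq2 called 92, and leaving out single libraries gave 5 to 22.

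RAB37, a secretory GTPase, was the clearest case, with opposite directions in the 2 settings. It was at 32.9, 37.6, 87.0 and 85.5 CPM in DMSO and 18.9, 17.3, 12.4 and 16.4 CPM in ATRA, but at 47.8, 50.3, 68.3 and 70.4 CPM in 552A and 177, 166, 204.1 and 198 CPM in Combo (difference of differences 3.48, SE 0.16, adjusted p = 3.1e-07). CD300LF, an inhibitory receptor of myeloid cells, had the same pattern, at 21.5 to 32.8 CPM in DMSO, 11.5 to 14.5 CPM in ATRA, 22.2 to 32.7 CPM in 552A and 114 to 179 CPM in Combo (3.43, SE 0.18, adjusted p = 8.6e-07). These genes overlap on opposite strands of chromosome 17, with CD300LF wholly within the span of RAB37. Their reads in the shared stretch cannot be told apart. SLC9A3R1, a scaffold protein gene, gave 8.56 to 14.6 CPM in ATRA and 26.8 to 52.5 CPM in Combo (1.96, SE 0.31). PALLD, an actin-binding protein, was raised in both settings and more with the inhibitor, to 7.75, 9.39, 51.3 and 40.5 CPM in ATRA and 53.6, 57.3, 155 and 174 CPM in Combo (2.11, SE 0.20, adjusted p = 4.8e-04). SHISA2, which fell in both settings, fell less with the inhibitor, and N4BP2L1 was lowered by ATRA alone but stood at 62.3 to 90.3 CPM in 552A and 63.9 to 78.4 CPM in Combo.

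Among the 10 genes in the other direction TGM2, the tissue transglutaminase and a classical retinoid target, rose in both settings but less with the inhibitor. It went from 0.540 to 1.24 CPM in DMSO to 127, 137, 229 and 299 CPM in ATRA, and from 1.06 to 2.02 CPM in 552A to 40.3, 38.5, 46.4 and 35.0 CPM in Combo (-2.93, SE 0.28, adjusted p = 4.8e-04). IL31RA, a cytokine receptor (-2.21, SE 0.20), and ITGA6, an integrin chain (-1.70, SE 0.25), likewise rose less from a higher starting level in 552A. IL31RA was at 7.96 to 12.3 CPM in DMSO and 31.6 to 41.9 CPM in 552A, and ITGA6 at 2.90 to 5.20 CPM and 7.27 to 14.2 CPM. CHI3L1, a chitinase-like secreted protein, rose with ATRA alone, from 84.6 to 101 CPM to 221 to 435 CPM, and stood at 22.3 to 43.8 CPM in 552A and 18.1 to 52.5 CPM in Combo (-1.74, SE 0.23). RNASE2, a granule ribonuclease (-1.79, SE 0.25), and ASS1, which makes arginine precursors (-1.71, SE 0.26), fell in Combo without a call for ATRA alone, and ASS1 reached 24.1 and 23.5 CPM in Combo at day 4 against 256 and 273 CPM in 552A. SERPINB10, AKR1C2, SLC22A16 and GRB10 completed the set. Of the 16 calls, 11 were lost in some of the 22 settings, and those for RAB37, CD300LF, PALLD, TGM2 and IL31RA were kept in all. CHI3L1 lost its call in 3 settings, among them either Combo library of day 4, and RNASE2 in 5. The calls for SERPINB10, SLC22A16, ITGA6, ASS1, SHISA2, AKR1C2, N4BP2L1, GRB10 and SLC9A3R1 were lost in 10 to 15, each of them without Combo day 4 replicate 1.

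**Figure D5:**
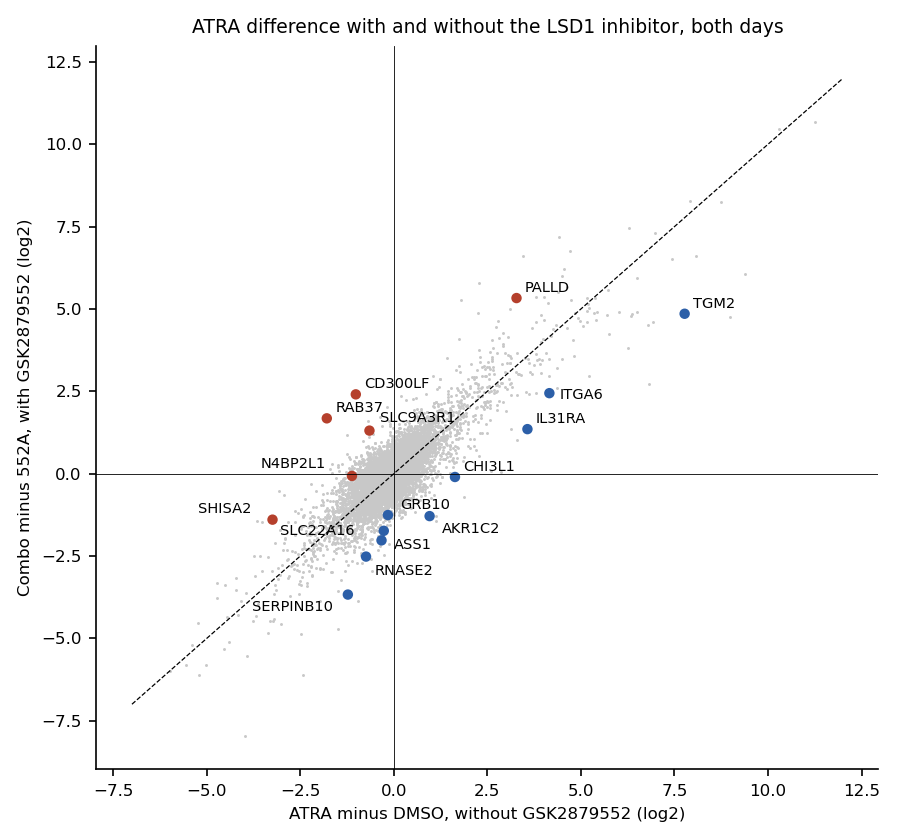
Difference of Combo minus 552A (y axis, log2) against ATRA minus DMSO (x axis, log2) over both days, one grey point per gene, with the 16 genes whose ATRA difference changed with the inhibitor in red (6 more positive) and blue (10 more negative). Most points lie along the dashed line of equal differences, RAB37 and CD300LF lie above 0 on one axis and below it on the other, and TGM2 lies below the line at 7.77 and 4.85.

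The same addition of ATRA to the inhibitor was compared with MV411 and THP1. Over both days 3667 genes were called in MV411 (20.1% of 18271), 1833 higher (10%) and 1834 lower (10%), and 4452 in THP1 (22.8% of 19522), 2424 higher (12.4%) and 2028 lower (10.4%). The difference itself was larger or smaller in MOLM13 than in MV411 for 736 of 19994 genes (3.68%), 491 more positive (2.46%) and 245 more negative (1.23%) in MOLM13, and than in THP1 for 2147 of 21148 (10.2%), 909 (4.3%) and 1238 (5.85%). With a correction for GC content and length the MV411 split was 1233 and 951. CX3CR1 rose in MOLM13, from 0.902 to 3.35 CPM to 6.76 to 30.7 CPM, and fell in MV411, from 1.38 to 1.92 CPM to 0.0817 to 0.354 CPM (difference between the lines 5.79, SE 0.54, adjusted p = 4.1e-05). DHRS3 reached 277 to 411 CPM in Combo in MV411, near the 362 to 427 CPM of MOLM13, but from 0.0611 to 0.409 CPM in 552A against 10.8 to 25.4 CPM. GFI1B, a repressor that recruits LSD1, was at 0.367 to 2.78 CPM in 552A and 6.29 to 34.3 CPM in Combo in MV411, and at most 1.90 CPM in any of the 8 MOLM13 libraries. Compared with THP1, ALOX12 differed, at 0.310 to 0.690 CPM in 552A and 0.492 to 0.880 CPM in Combo there (5.58, SE 0.40, adjusted p = 7.0e-06). CR1, a complement receptor, fell in MOLM13 (from 1.46 to 5.31 CPM to 0.131 to 0.684 CPM) and rose in THP1, from 0.747 to 1.09 CPM to 37.3 to 56.2 CPM (-9.05, SE 0.58, adjusted p = 3.6e-06). HLA-DRA was called higher in all 3 lines, by 3.94 in MOLM13, 2.83 in MV411 and 1.79 in THP1.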

How the data were processed

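RNA-seq of MOLM13 libraries was analysed from the table of read counts per gene that the authors deposited. The software named per the submitters' processing notes was HTSeq 0.6.0, STAR 2.4.2a and Trimmomatic 0.36, with the build GRCh38. The annotation release and strand setting are not given in the sources used here, and libraries were stranded total RNA per the labels' protocols. Of 60552 gene rows, 56994 were matched to GENCODE 29 for names and positions, and rows without a match held at most 0.0771% of a library's counts.

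Genes passing filterByExpr (minimum count 10) were tested with edgeR 4.0.16 in R 4.3.3 (quasi-likelihood test, TMM normalisation, day as a factor) and a gene was called where its p, adjusted by Benjamini and Hochberg's method over all genes tested, was under 0.05. Differences by day, by inhibitor and by line were contrasts of group means. CPM used TMM library sizes. The SE was taken as the absolute log2 difference divided by the square root of the quasi-likelihood F statistic. It can be very large where a group has few or no counts. The scripts were tested on simulated data. Alternatives were DESeq2 1.42.0, its size factors, no filter on low counts, a replicate block, a GC and length correction (also with the block), a log2 change of at least 1, a fit of all 16 MOLM13 libraries, and leaving out each library. Named genes were the 12 largest rises and falls among called protein-coding genes without overlap at each day (average abundance of 1 or more, log2 CPM), up to 3 genes per list by p, a fixed set of 27 and the 4 largest differences per direction between settings or lines. Other genes named were chosen after their values were seen, and some genes that these rules select are not reported here. The comparison and the 44 gene lists were chosen with earlier results of these data known. Intervals for count ratios cover counting error only.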

Additional observations from a re-analysis of the deposited data

Results flagged for a closer look

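These genes drew attention because a test called a difference between the effects of the same addition of ATRA in different settings. With the inhibitor present the ATRA difference was more positive for RAB37 (3.48, log2), CD300LF (3.43), PALLD (2.11), SHISA2 (1.97), SLC9A3R1 (1.96) and N4BP2L1 (1.06). It was more negative for TGM2 (-2.93), SERPINB10 (-2.54), AKR1C2 (-2.31), IL31RA (-2.21), RNASE2 (-1.79), CHI3L1 (-1.74), ASS1 (-1.71), ITGA6 (-1.70), SLC22A16 (-1.59) and GRB10 (-1.13). GRB10 stood at 9.55 and 8.06 CPM in Combo at day 4, against 40.8 to 56.5 CPM at day 2 and 45.7 to 56.3 CPM in 552A.

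The Combo minus 552A difference in MOLM13 exceeded that in MV411 for AIPL1 (6.93), PTPRG (6.63), CX3CR1 (5.79) and TMEM176B (5.56) and lay below it for KIAA1755 (-7.39), HOXA5 (-7.15), GFI1B (-6.57) and DHRS3 (-6.28). Some of these rest on the 552A level: KIAA1755 reached 8.52 to 11.7 CPM in Combo in MOLM13 and 9.40 to 26.8 CPM in MV411, where 552A had 0 counts. The fitted values of genes with 0 counts in a group depend on the prior count. HOXA5 stood at 6.28 to 11.4 CPM in 552A in MOLM13 and at most 0.0457 CPM in MV411. Against THP1 the difference was higher for SDC1 (8.32), STYK1 (5.85), ALOX12 (5.58) and KLF12 (5.41) and lower for CR1 (-9.05), ELOVL6 (-7.91) and TDRD6 (-7.55). TDRD6 was at or near 0 in MOLM13, and its call was lost in 9 of 22 settings, AIPL1's against MV411 in 12 and GFI1B's in 2.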

How the results depend on the processing

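Each value here is a number of genes called. The 1196 higher and 951 lower genes over both days became 2248 and 2349 with a GC and length correction, 2316 and 2409 with the correction and a replicate block, and 752 and 631 with a log2 change of at least 1. Without a filter on low counts the lower genes were 1452. Leaving out single libraries gave 740 to 1094 and 472 to 976. At day 2 the 450 calls (70.9% higher) became 975 without a filter (58.3% higher), 1680 with the correction (55.1%), 1837 with correction and block (53.5%), 679 in the fit of all 16 libraries and 141 to 674 without single libraries, with 180 and 141 without 552A day 2 replicates 1 and 2 and 218 and 228 without Combo day 2 replicates 1 and 2. At day 4 the 1242 calls became 2125, 3546 and 3823 (no filter, correction, correction with block) and 466 to 1420 without single libraries, with 482 and 466 without Combo replicates 1 and 2. The 0 genes differing between days became 35 with DESeq2, 1 with its size factors, 75 without a filter, 41 with the correction, 44 with correction and block, 10 in the 16-library fit and 0 to 3 without single libraries. The 16 genes differing with and without inhibitor became 92 with DESeq2, 142 without a filter, 119 with the correction, 240 with correction and block and 5 to 22 without single libraries, and were 10 or fewer when any 1 of the ATRA or DMSO libraries or the Combo libraries of day 4 was left out. The 736 genes differing from MV411 (66.7% higher) became 1844, 2184 (56.5% higher) and 2429 (no filter, correction, correction with block) and 435 to 1336 without single libraries: 435 and 450 without MOLM13 Combo day 4 replicates 1 and 2, 462 without MV411 552A day 2 replicate 2, 456 without MV411 Combo day 2 replicate 1 and 1336 without MV411 Combo day 4 replicate 1. The 2147 differing from THP1 became 5138 with the correction, 5764 with correction and block and 1500 to 2632 without single libraries. The cause of these shifts was not tested.

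With a replicate block the counts were 1060 higher, 801 lower, 345 at day 2, 988 at day 4, 0 between days, 23 with and without inhibitor, 560 against MV411 and 2453 against THP1. The replicate numbers did not meet the rule for pairing, since the correlation of replicate deviations was not above 0.1 in every pair of groups. It was 0.453 between the 2 days of 552A and 0.345 between the 2 days of Combo, and -0.472 to -0.0956 in the 4 pairs of a 552A with a Combo group. Libraries of a treatment with the same number thus deviated together across days, and whether they came from one culture was not given. The 4 libraries of a treatment may therefore not be independent. For the named genes, 2791 of the repeated values stayed on their side of the threshold, 194 lost the call and 44 gained it. Of the 2791, 17 had the other sign, all in genes not called (RARA, RARG, SPI1, CEBPA, HOXA5, HOXA9, CHI3L1 and N4BP2L1 for Combo minus 552A), and 0 called values reversed. Besides those named in the report, Combo minus 552A calls were lost in some settings for MXI1, HMGCS1, VLDLR, GIMAP4, PTPRC, ASS1 and AKR1C2. Calls were gained in some for CD163, FLT3, GFI1, TRIB3, PSAT1, PHGDH, SLC22A16, GRB10 and ELOVL6. With 2 libraries per group and day and 14.31 to 26.29 M counts, low-count genes such as CD14 are the least certain.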
